A study of Homo sapiens with 27 samples.

Results

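LN-229 glioblastoma cells of the WT genotype, exposed 3 times to temozolomide (TMZ) or to solvent, carried very different sets of marked bases. G made up 62.1% ± 2.24 (SD, n = 3) of the marked sites after TMZ and 20.8% ± 2.45 (SD, n = 3) after solvent, and the 2 groups did not overlap. The libraries were chosen by their labels: 3 named as WT cells given TMZ 3 times and 3 named as WT cells given solvent 3 times, 6 of the 27 libraries of the series. Both groups were WT LN-229 cells, an established glioblastoma line, and the labels name no further allele or agent. The treated cells received 1 mM TMZ in growth medium and the controls received 1% DMSO. The 3 exposures were 4 h apart, with harvest at 24 h counted from the first. Naked DNA treated with 1 mM TMZ outside cells, with 3 libraries, is used beside them for comparison. By its titles, replicate 2 is DNA of the WT line and replicate 3 of the MGMT line, and the line of replicate 1 is not stated. Nothing in the labels says whether replicates came from separate cultures, so the spread between libraries may be partly technical.

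TMZ breaks down in water to a methylating species that attacks several positions of DNA bases. Its O6-methylguanine is the minor product by amount and the one best known for killing glioblastoma cells, because it pairs with T during replication and engages mismatch repair. The repair protein MGMT removes the methyl group directly and is used up in doing so. The assay, O6-MeG-seq, captures DNA fragments with an antibody to O6-methylguanine and then lets a polymerase stop at the lesion, so that each site is read as 1 base on 1 strand. A site below is such a position and strand. G sites are sites at G, and sites at A, C and T of the same library are set beside them. Sites at A, C and T also differed between the groups, as given below, so they are not a neutral background.

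Promoter sequences show what single marked bases look like. The 4 windows below are those with the most G positions, of the autosomal windows searched, marked in at least 1 TMZ library and none in the 3 solvent libraries, over the 250 bases before a gene start. They were chosen for these marks, so their counts are a description. Sequences are from RefSeq on GRCh38.p14 and are written 5′ to 3′ on the strand of the gene. A capital G is a G marked in TMZ libraries on that strand, and a capital C is the partner of a G marked on the opposite strand.

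LOC105376995: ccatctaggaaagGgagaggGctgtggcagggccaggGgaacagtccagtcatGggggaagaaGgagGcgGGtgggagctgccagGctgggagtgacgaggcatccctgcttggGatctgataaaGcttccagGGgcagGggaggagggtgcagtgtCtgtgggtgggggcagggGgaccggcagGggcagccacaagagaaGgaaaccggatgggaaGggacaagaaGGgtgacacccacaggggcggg
ARHGEF2: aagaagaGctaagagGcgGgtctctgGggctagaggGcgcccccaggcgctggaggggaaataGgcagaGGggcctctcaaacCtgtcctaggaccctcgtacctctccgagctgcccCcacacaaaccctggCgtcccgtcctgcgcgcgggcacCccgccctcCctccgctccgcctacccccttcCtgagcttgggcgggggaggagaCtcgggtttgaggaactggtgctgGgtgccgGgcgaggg
EXOC7: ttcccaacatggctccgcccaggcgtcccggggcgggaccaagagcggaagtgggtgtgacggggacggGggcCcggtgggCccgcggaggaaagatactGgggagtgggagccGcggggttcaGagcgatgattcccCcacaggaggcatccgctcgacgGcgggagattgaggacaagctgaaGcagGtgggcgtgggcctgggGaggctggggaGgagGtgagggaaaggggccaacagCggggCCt
ZNF580: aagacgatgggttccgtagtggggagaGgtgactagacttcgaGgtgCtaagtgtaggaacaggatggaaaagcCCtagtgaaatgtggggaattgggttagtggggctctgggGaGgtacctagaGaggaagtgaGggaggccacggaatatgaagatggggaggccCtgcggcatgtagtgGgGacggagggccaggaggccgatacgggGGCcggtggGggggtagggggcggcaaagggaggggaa

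The first window lies upstream of LOC105376995, an uncharacterised locus, at chr20:62533758-62534007 on the plus strand. It held 21 marked G positions, 20 on the strand of the gene and 1 on the other, of 162 G available on both strands. TMZ replicates 1, 2 and 3 marked 4, 7 and 12 of them, and 1 position was marked in more than 1 library. A purine stood before 20 of the 21. The window of ARHGEF2, a microtubule-bound activator of the GTPase RhoA, lies at chr1:155978548-155978797 on the minus strand. It held 17 marked G positions, and a purine preceded 16 of them. The window of EXOC7, a subunit of the exocyst complex, at chr17:76103572-76103821 on the minus strand, held 16, of which 13 followed a purine. The window of ZNF580, a zinc finger protein, at chr19:55641802-55642051 on the plus strand, also held 16, all of them after a purine. Across the 30368 windows with no G marked in the solvent libraries, the median was 2 marked G positions, and 5978 windows had none. The next window in rank held 15. Single windows are thus sparsely marked, and the comparisons below pool many of them.

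The number of marked sites differed first. With a minimum score of 30 on chromosomes 1 to 22 and M, TMZ replicates 1, 2 and 3 held 5904793, 8553508 and 7956970 sites, and solvent replicates held 1136191, 2731429 and 1395099. All 3 TMZ libraries were above all 3 solvent libraries. G sites alone numbered 3524253, 5480962 and 4981500 after TMZ and 268988, 534933 and 269008 after solvent, so that 1 G site fell on every 524 to 816 bp after TMZ and on every 5373 to 10685 bp after solvent. The difference of mean log2 numbers of sites was 2.18 (p = 0.1 in an exact permutation test over libraries, two-sided as in all such tests here, and the smallest p that 3 against 3 libraries allow). No comparison of single values between the groups can pass a threshold of 0.05 for this reason. The number of sites also depends on how much of each library was sequenced, and its part in this difference was not tested. Within-library shares and ratios are used from here on.

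Some libraries stood apart in ways the groups do not give. In solvent replicate 1, 68.5% of sites on the main chromosomes reached a score of 30, against 83.5% to 86.5% in the other 5 libraries. Solvent replicate 1 and TMZ replicate 1 had 25137 G sites in common, 26.7 times the number that independent marking gives at the local density, and 21780 sites at A, C and T, 42.4 times. TMZ replicate 2 and solvent replicate 2 had 9272 G sites in common (3.19 times) and 8638 sites at A, C and T (5.14 times). The other 7 pairs of a TMZ with a solvent library lay between 1.53 and 1.83 times for G and between 1.96 and 2.34 times for A, C and T. For this reason each difference is also given within same-numbered libraries 1 and 2, or without solvent replicate 1, where that matters. The 95% Wilson interval of a library's G share had a half-width of at most 0.0782 points, which covers counting error only.

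Guanine was the base that set the groups apart. The G share was 59.7%, 64.1% and 62.6% in TMZ replicates 1 to 3 and 23.7%, 19.6% and 19.3% in solvent replicates 1 to 3. Every TMZ library lay above every solvent library, by a mean of 41.3 percentage points (p = 0.1 by exact permutation). Within same-numbered libraries the difference was 36.01 points for number 1, 44.5 for number 2 and 43.3 for number 3. Expressed per site at another base, G sites numbered 1.48, 1.78 and 1.67 after TMZ and 0.310, 0.244 and 0.239 after solvent, a 6.23-fold higher mean ratio. Naked DNA reached 70.9%, 68.2% and 67.8%, above all 3 TMZ libraries from cells, with a difference of 6.84 points (p = 0.1 by exact permutation; 0.2 adjusted over the 8 values compared with naked DNA).

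**Figure D1:**
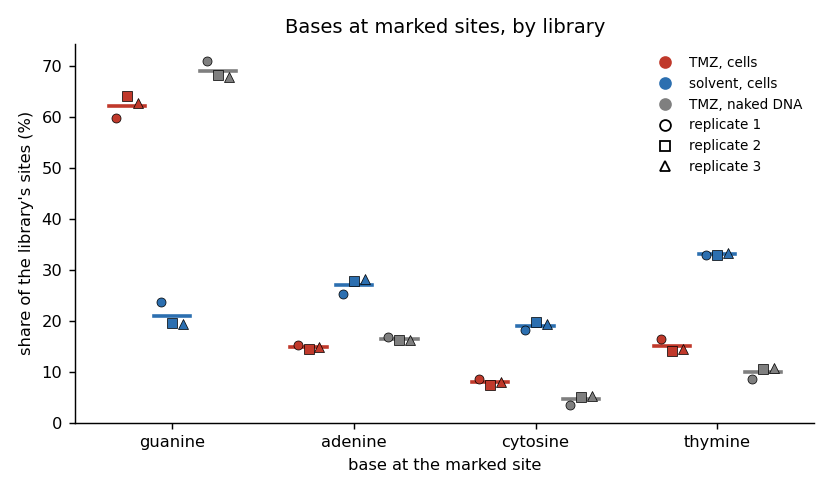
Share of each library's sites at each base (y axis, percent), for cells given TMZ, cells given solvent and naked DNA given TMZ. Points are libraries and bars are group means; G is at 59.7% to 64.1% in TMZ-treated cells and at 19.3% to 23.7% in solvent-treated cells.

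Among the sites that were not at G, adenine took a larger share after TMZ. It held 37.9%, 40.2% and 39.96% of sites at A, C and T in TMZ libraries and 33.1%, 34.5% and 34.9% in solvent libraries. The groups did not overlap, and the mean difference was 5.12 points (p = 0.1 by exact permutation). In naked DNA the share was higher still, at 58.0%, 51.2% and 50.6%. Marked A was followed by G in 59.6%, 70.4% and 68.6% of the sites with a known next base after TMZ, and in 42.2%, 44.7% and 45.3% after solvent. These A sites therefore often lay 1 base before a G, and more often so in the treated cells, where the groups did not overlap (p = 0.1 by exact permutation). Marked T was also followed by G more often after TMZ (means 38.6% and 32.1%, without overlap), and marked C overlapped (20.3% and 18.9%). A neighbour was known only where a library outside the comparison marked that position, so these shares are weighted to such positions.

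The base before a marked G also differed between the groups. Methylating drugs are known to modify the O6 position of G more readily after a purine (A or G) than after a pyrimidine (C or T). No genome sequence was used here, so a neighbour was read where the adjoining position was itself marked in 1 of the other 21 libraries. This gave the previous base for 6.06% to 6.62% of G sites, weighted to positions that those libraries mark. The share of G sites with a purine before them was 88.2% ± 1.19 (SD, n = 3) after TMZ and 64.5% ± 3.31 (SD, n = 3) after solvent (difference 23.6 points, p = 0.1 by exact permutation). Within same-numbered libraries the difference was 18.6, 25.3 and 27.0 points. A G stood before 55.9%, 58.5% and 58.2% of G sites after TMZ and before 39.5%, 35.1% and 33.6% after solvent. For A before G the values were 30.9%, 30.4% and 30.6% against 28.7%, 28.5% and 28.2%. Both purines were higher in every TMZ library, G by 21.4 points on average and A by 2.19 points. T before G took the opposite course, with 10.7%, 9.03% and 9.03% after TMZ and 24.9%, 28.2% and 29.3% after solvent. C before G was the rarest, at 2.55%, 2.05% and 2.18% against 6.90%, 8.13% and 8.87%. Neither pyrimidine overlapped between the groups. G also stood more often before marked A, C and T after TMZ (means 38.1%, 39.2% and 36.9% against 25.4%, 30.3% and 22.7%). Those groups did not overlap, so a rise of G before the site was not particular to marked G. A stood before marked A, C and T less often after TMZ, also without overlap.

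**Figure D2:**
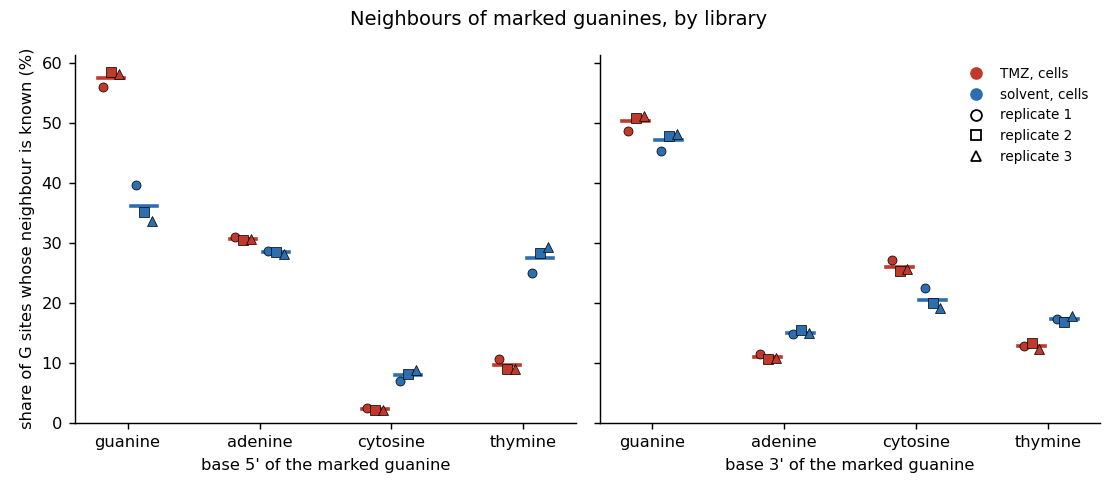
Share of G sites with each base before (left) and after (right) the marked G (y axis, percent of G sites whose neighbour is known), in TMZ-treated and solvent-treated cells. Points are libraries and bars are group means; G before G is at 55.9% to 58.5% after TMZ and at 33.6% to 39.5% after solvent, and T before G shows the reverse order.

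The base after the marked G differed less. C followed 27.2%, 25.3% and 25.7% of G sites after TMZ and 22.5%, 19.97% and 19.2% after solvent, and no library of one group lay within the other. G followed 50.2% ± 1.38 against 47.1% ± 1.52 (SD, n = 3 each), and A followed 10.95% ± 0.453 against 15.04% ± 0.312. T followed 12.8% ± 0.514 against 17.3% ± 0.503, so both were lower in every TMZ library. Where both neighbours were known, the 3 contexts with the highest mean share after TMZ relative to solvent were GGC (14.6% ± 0.372 against 6.15% ± 0.863, a ratio of 2.37), GGG (ratio 1.72) and AGC (ratio 1.49), with the marked G in the middle. The 3 lowest were CGT (ratio 0.232), CGA (0.243) and TGT (0.261).

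Promoter windows allowed the same contexts to be counted per G available, since their sequence is in the RefSeq table. In these windows the TMZ libraries marked 3.81, 6.07 and 6.18 of every 1000 G, and the solvent libraries 0.208, 0.357 and 0.174. This is a 21.7-fold higher mean rate, against 4.45-fold for A, 3.81-fold for C and 3.42-fold for T in the same windows. Those fold values hold the libraries' different totals, so only their order across bases and contexts is used. The mean rate ratio was highest in GGC (43.3), GGG (34.5) and GGT (32.5), and lowest in TGT (5.93), TGA (6.93) and CGT (7.23).

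GGC was marked at 5.88, 9.19 and 9.48 per 1000 after TMZ and at 0.203, 0.236 and 0.128 after solvent. TGT was marked at 1.40, 1.97 and 1.76 against 0.166, 0.445 and 0.255, where the solvent values rest on 41, 110 and 63 marked positions. Relative to all G of its own library, GGC stood at 1.53 ± 0.0133 after TMZ and 0.790 ± 0.163 after solvent (SD, n = 3 each), and TGT at 0.325 ± 0.0408 and 1.17 ± 0.340. Neither context overlapped between the groups on this scale. CpG steps, where the G follows a C, had a relative rate of 0.486 ± 0.0373 after TMZ and 1.00 ± 0.0747 after solvent. Standardised for the bases available, a purine preceded 74.8% of marked G after TMZ and 49.0% after solvent. Relative to all sites at their own base, A, C and T after a G were also marked more after TMZ. Their mean relative rates were 1.23, 1.29 and 1.31 against 0.922, 1.12 and 0.949, without overlap. In naked DNA the mean rates of GGC, GGG and TGT were 10.9, 13.5 and 3.29 per 1000. GGG had the highest mean rate of the 16 contexts there and in TMZ-treated cells (8.66). By library, GGC was above GGG in TMZ replicate 1 (5.878 against 5.873) and GGT was above GGG in TMZ replicate 2 (10.2 against 9.88).

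Other positions around the marked G differed less. At the second base before the marked G in promoter windows, A made up 24.5% ± 0.349 after TMZ and 21.2% ± 0.683 after solvent, and C made up 24.9% ± 0.0536 and 30.5% ± 1.31 (SD, n = 3 each). G made up 32.3% ± 0.451 and 30.2% ± 1.496. None of these 3 bases overlapped between the groups. Over all G of the windows that place held 20.1% A, 30.9% C and 32.01% G, so that A and C lay nearer the solvent mean and G nearer the TMZ mean. At the third base before, all 4 bases overlapped between the groups. At the fourth, A was lower after TMZ without overlap (18.2% ± 0.455 against 20.3% ± 0.961). Downstream, G at the second base after (30.6% ± 1.43 against 35.8% ± 2.501), T at the third (17.9% ± 0.354 against 20.2% ± 0.956) and A at the fourth (18.7% ± 0.692 against 21.4% ± 0.65) were lower without overlap. All 4 bases were compared at each of these positions, and shares at the same position are tied. Groups of 3 libraries with no difference separate with a probability of 0.1, so some of these separations could arise that way.

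Spacing on the same strand was compared with an even spread of each library's sites within 100 kb stretches. Pairs of G sites 1 to 10 bp apart were 1.79, 1.98 and 2.005 times as frequent as that in TMZ libraries and 4.69, 2.26 and 2.81 times in solvent libraries. Solvent replicate 1 was far above the rest, and the TMZ libraries were the 3 lowest. The mean difference was -1.33 (p = 0.1 by exact permutation), and it was -0.61 without solvent replicate 1. With no minimum score it was -5.01, from means of 2.25 and 7.26. At A, C and T the same ratio was 1.64, 1.59 and 1.61 after TMZ and 12.1, 2.53 and 3.28 after solvent, so that close pairs were relatively more frequent after solvent at G and at the other bases pooled. At 1 bp, where 2 neighbouring G on a strand are both marked, the groups overlapped, with 3.69, 4.53 and 4.39 after TMZ and 7.23, 2.91 and 4.64 after solvent. Naked DNA gave 1.93, 1.90 and 1.88 for 1 to 10 bp, within the range of the TMZ libraries.

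**Figure D3:**
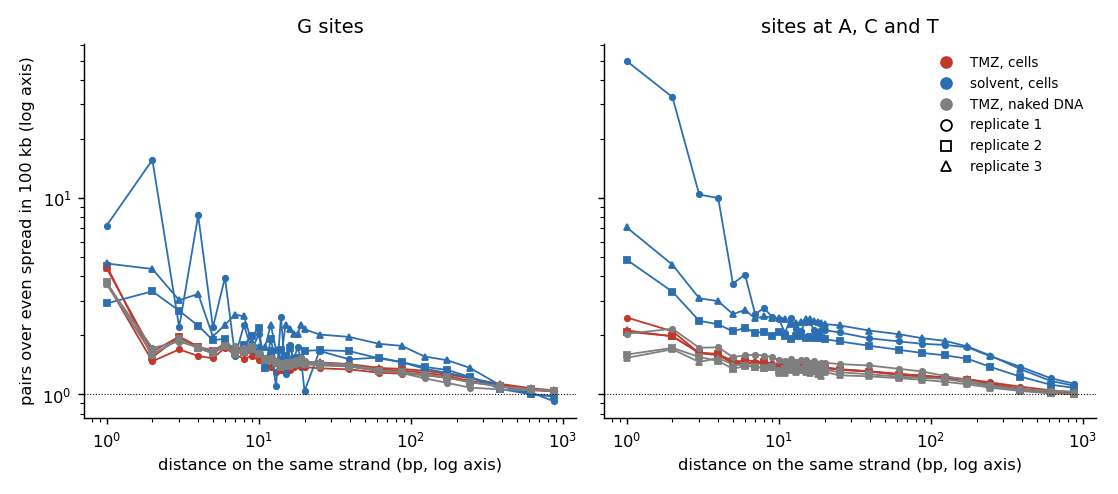
Pairs of sites on the same strand over the number an even spread within 100 kb gives (y axis, log scale), against their distance (x axis, bp, log scale), for G sites (left) and sites at A, C and T (right). Lines are single libraries. Pooled over 1 to 10 bp, solvent replicate 1 lies at 4.69 for G and 12.1 for A, C and T, above every other library. It is not the highest at every single distance: for G at 3 bp it is at 2.20, against 2.67 and 3.02 in solvent replicates 2 and 3.

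G positions marked in more than 1 library were few. Of the G positions marked after TMZ, 13572300 were marked in 1 library, 196572 in 2 and 3162 in all 3, so that 1.45% recurred. After solvent 1065409 were marked in 1 library, 853 in 2 and 1 in all 3 (0.0801%), and in naked DNA 1.52% recurred. Set against independent marking at the local density of sites and of G and C, which takes the number of sites into account, pairs of TMZ libraries had 2.87, 2.89 and 3.44 times as many G positions in common, and pairs of solvent libraries 2.17, 2.13 and 2.75 times. At A, C and T those pairs had 2.44, 2.38 and 4.13 times after TMZ and 2.82, 3.25 and 3.09 times after solvent. Pairs of libraries are not independent, so no test was made. With no minimum score the mean for G was 3.23 after TMZ and 6.91 after solvent, the opposite order.

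Across the genome, the difference in G share was close to even. All 22 autosomes had a higher G share in each TMZ library than in any solvent library. Chromosome 19 had the highest, at 63.7%, 68.0% and 66.3% after TMZ and 27.0%, 22.2% and 21.99% after solvent, and chromosome 4 was low at 57.8%, 62.1% and 60.9% against 22.4%, 18.3% and 18.2%. The ratio of G sites to sites at A, C and T was 6.14-fold (chromosome 8) to 6.38-fold (chromosome 11) higher after TMZ over the autosomes. In the mitochondrial chromosome the G share was 34.2%, 36.3% and 35.6% after TMZ and 24.0%, 21.7% and 22.4% after solvent. That chromosome is short, and a position is listed once however often it was read. Whether this bears on its G share was not tested.

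In 1 Mb bins, the number of G sites after TMZ relative to solvent followed base composition. limma's voom model, applied to the number of G sites with each library scaled to its own total, called 1123 of 2751 bins, or 40.8%, at a Benjamini-Hochberg adjusted p of 0.05 (573 higher after TMZ and 550 lower). A bin called higher holds more of its library's G sites, not merely more sites. Sites at A, C and T of the same libraries, tested in the same way, gave 1545 calls in 2750 bins, or 56.2% (780 higher, 28.4%, and 765 lower, 27.8%). Of the 1121 bins with a G call in both fits, 960 were also called at A, C and T in the same direction and 0 in the opposite one. Across the 2749 bins of both fits the log2 fold changes at G and at A, C and T had a Pearson r of 0.89. That r is across bins of the same 6 libraries, which are not independent, and is given as a description.

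The link with composition was of similar size for both kinds of site. The G and C share of a bin, estimated from 9 solvent libraries outside the comparison, had a Pearson r of 0.81 with the log2 fold change at G over 2748 bins and of 0.85 with that at A, C and T. The autosomal bins were put into 5 classes of equal size by that share. In the class poorest in G and C (32.2% to 36.3%), 338 of 550 bins were called lower and 0 higher, with a median log2 fold change of -0.25. In the richest class (43.4% to 58.7%), 447 of 550 were called higher and 1 lower, with a median of 0.31. The richest class held 27.4%, 28.3% and 29.2% of the G sites of TMZ libraries and 23.6%, 22.9% and 22.95% of those of solvent libraries. It held 22.9%, 23.9% and 25.0% of sites at A, C and T after TMZ and 19.4%, 19.6% and 19.7% after solvent. G sites per site at another base were 6.10-fold higher after TMZ in the poorest class and 6.23-fold in the richest.

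When each bin's G sites were divided by its sites at A, C and T, 1 of 2744 bins was called, or 0.0364%. That bin was the mitochondrial chromosome, and 176 bins had an unadjusted p under 0.05. Sites at A, C and T themselves differed between the groups, so a change common to both kinds of site cancels in this ratio. The same ratio had a Pearson r of 0.08 with the G and C share. With the G and C trend of each library removed, 6 bins were called for the number of G sites (419 at an unadjusted p under 0.05). A fit over the 24 cell libraries of the series, which takes its spread from all 8 groups, called 17, of which 0 were higher and 17 lower (431 unadjusted). The same fit at A, C and T called 1383 bins, 689 higher and 694 lower.

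**Figure D4:**
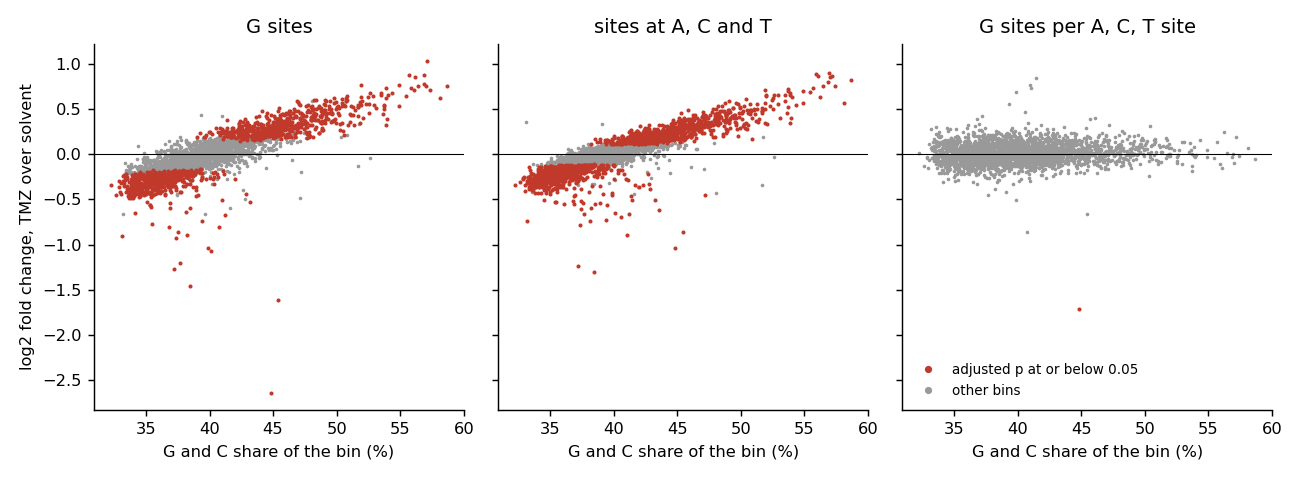
Log2 fold change of TMZ over solvent (y axis) for each 1 Mb bin against its share of G and C (x axis, percent), for G sites (left), sites at A, C and T (middle) and their ratio (right). Red points are bins at a limma adjusted p of 0.05 or below: 1123 of 2751 for G sites, 1545 of 2750 for sites at A, C and T, and 1 of 2744 for the ratio.

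The 5 bins with the largest higher calls lay near chromosome ends and were rich in G and C. The first Mb of chromosome 16 (chr16:1-999999), with a G and C share of 57.1%, held 1917, 3082 and 3200 G sites after TMZ and 94, 148 and 71 after solvent (log2 fold change 1.04, SE 0.11, limma adjusted p = 1.1e-06). Its G share was 70.3% after TMZ and 24.8% after solvent over the summed libraries, and the fold change of its ratio of G to other sites was 0.19 on the log2 scale (limma adjusted p = 0.741). The other 4 were chr9:136000000-136999999 (log2 fold change 0.88), chr11:1-999999 (0.88), chr1:1000000-1999999 (0.85) and chr17:81000000-81999999 (0.78), with G and C shares of 55.7% to 56.9%. None of the 5 was called for the ratio. With the G and C trend removed all 5 lost their call, with log2 fold changes of 0.30, 0.14, 0.17, 0.15 and 0.06, and in the fit over 24 cell libraries all 5 lost it too (limma adjusted p from 0.175 to 0.283). In the latter fit the log2 fold changes were nearly the same, at 1.04, 0.89, 0.88, 0.86 and 0.79, with SE from 0.271 to 0.385.

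The mitochondrial chromosome had the largest lower call. It held 3927, 3886 and 3972 G sites after TMZ and 1862, 2169 and 1780 after solvent. The TMZ libraries thus lay within a narrow range although their G totals did not, and relative to those totals the log2 fold change was -2.64 (SE 0.13, limma adjusted p = 8.5e-13). Naked DNA, with 8826252, 5126312 and 5787720 G sites over the chromosomes used, held 4030, 4333 and 4347. A position is listed once however often it was read, and with sites marked in more than 1 of the 6 libraries left out the log2 fold change was -1.44 (SE 0.23). On the minus strand of the file 2832, 2795 and 2899 of these G sites lay after TMZ, and 1095, 1091 and 1073 on the plus strand. After solvent the order was the same, with 1313, 1509 and 1258 on the minus strand and 549, 660 and 522 on the plus strand. These numbers include any difference in G content between the 2 mitochondrial strands, which was not measured. The other lower bins were chr12:36000000-36999999 with 12, 16 and 10 G sites after TMZ against 4, 3 and 2, and 2 neighbouring bins of chromosome 21 (chr21:7000000-7999999 and chr21:8000000-8999999) and chr10:41000000-41999999, with log2 fold changes of -1.46, -1.62 and -1.20. These 4 held few usable sites in all 6 libraries and depended on the score. With no minimum score the chromosome 12 bin was at -0.74 and lost its call (limma adjusted p = 0.123), the first chromosome 21 bin was at -0.51, and the second lost its call at -1.13 (limma adjusted p = 0.0548). The chromosome 10 bin was at -0.32 with a minimum score of 40 and lost its call (limma adjusted p = 0.323). Of all named bins, higher and lower, 7 lost their call with the G and C trend removed and 6 in the fit over 24 cell libraries.

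In gene bodies few G sites were listed per gene after solvent. The median tested gene held 225 G sites over the 3 TMZ libraries and 15 over the 3 solvent libraries. limma's voom called 336 of 15518 protein-coding genes, or 2.17%, at an adjusted p of 0.05, with 181 higher after TMZ (1.17%) and 155 lower (0.999%). The balance of directions turned with the score, with 277 higher and 401 lower at no minimum score and 141 and 65 at a minimum of 40. The same fit blocked on replicate numbers called 144. Without solvent replicate 1 it called 738, and without replicate 2 of both groups 0 of 4341 (222 at an unadjusted p under 0.05). The limma-trend form of the fit called 0, with 2706 genes at an unadjusted p under 0.05. For the ratio of G sites to sites at A, C and T, 0 of 7862 genes were called (447 unadjusted). Sites at A, C and T alone gave 2354 calls in 13465 genes, or 17.5% (1082 higher, 8.04%, and 1272 lower, 9.45%). A change common to both kinds of site cancels in the ratio. Without replicate 2 of both groups the calls at A, C and T were 641 of 9837 genes tested, and without replicate 3 they were 639 of 11985.

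The 10 genes with the largest higher calls had almost no G site in solvent libraries. They passed the filter on low values, 10 sites in 3 libraries, through the TMZ libraries alone. They were also picked for the largest fold changes, so the ratios, intervals and "at least" values below describe them and set no bound. L3MBTL2, a reader of methylated histones, held 58, 118 and 83 G sites after TMZ and 0, 1 and 0 after solvent, a ratio of 19.9 relative to library totals with an exact 95% interval of 3.53 to 788 for counting error alone. Its sites at A, C and T numbered 110 and 39 over the groups, with no call (log2 fold change 0.30). PIGQ, an enzyme of GPI anchor synthesis, held 41, 60 and 66 against 0, 0 and 0, at least 4.27-fold higher with 3 sites over the solvent group taken as the floor. With no minimum score it lost its call (log2 fold change 1.27, limma adjusted p = 0.0826). LRRC45, a centrosome linker protein, TBRG4, a mitochondrial RNA-binding protein, and DOK3, an adaptor of immune cell signalling, likewise held 0 in all 3 solvent libraries (at least 3.84-fold, 3.40-fold and 3.22-fold higher).

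SLC7A5, the amino acid transporter LAT1, held 87, 165 and 150 G sites after TMZ and 0, 5 and 1 after solvent, and was also called higher at A, C and T (limma adjusted p = 0.0192). TRAF7, a ubiquitin ligase, with 79, 124 and 102 against 3, 0 and 0, was called at A, C and T too (limma adjusted p = 0.00435), as were PIGQ, LRRC45, TBRG4 and MYL9. TNNT3, a troponin of fast muscle, ZBTB47, a zinc finger protein, and MYL9, a myosin light chain, had 1, 1 and 2 G sites over the solvent group. All 10 genes were too thin in solvent libraries for the ratio test, and all 20 named genes lost their call under limma-trend (adjusted p from 0.0506 to 0.135). The fold changes moved little there, with L3MBTL2 at 2.97 and SUCNR1 at -2.19 on the log2 scale.

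The 10 lower calls rested on few sites as well, and 7 of them lost their call in limma with the replicate number as a block (CYP2A6, TNFSF9, H2BC12, TMPRSS11B, LYVE1, SLC22A2 and ZNF732, adjusted p from 0.0611 to 0.0976). Their log2 fold changes with the block, such as -1.89 for CYP2A6 and -1.80 for TNFSF9, were about as large as without it. SUCNR1, the succinate receptor, held 10, 12 and 10 G sites after TMZ and 2, 6 and 2 after solvent, where the difference in totals would give more (ratio 0.245, exact 95% interval 0.118 to 0.560 for counting error). That interval does not allow for the choice of genes by their fold change. CYP2A6, which oxidises nicotine, KRT1, a keratin of skin, TNFSF9, a ligand of activated T cells, and H2BC12, a histone H2B gene, had ratios of 0.345, 0.332, 0.340 and 0.392. CNTNAP3B, TMPRSS11B, LYVE1, SLC22A2 and ZNF732 had ratios of 0.373 to 0.404. CYP2A6 and CNTNAP3B have near-identical relatives, so the positions that can reach a score of 30 in them are uncertain. With no minimum score CNTNAP3B was at -0.54 on the log2 scale (limma adjusted p = 0.0274), and CYP2A6 lost its call at -1.33 (limma adjusted p = 0.0516).

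Gene lists were read against all tested genes, whose median log2 fold change was 0.01. Among the genes of mismatch repair, which act on O6-methylguanine paired with T, 0 of 8 were called in either direction (background 2.17%) and the median was -0.24. At A, C and T 1 of 8 was called lower (background 9.45%). So few genes give no reading against shares of that size. MSH6, a subunit of the complex that recognises mismatches, held 44, 71 and 69 G sites after TMZ and 5, 6 and 7 after solvent (log2 fold change -0.56, SE 0.34, limma adjusted p = 0.395). In the 8 mismatch repair genes together the G share was 56.8%, 63.7% and 62.0% after TMZ and 25.0%, 20.2% and 20.9% after solvent, without overlap.

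Of the 10 genes of base excision and direct repair, 8 could be tested and 0 were called (background 2.17%), with a median of -0.02. MGMT, the direct repair gene itself, held 382, 603 and 511 G sites after TMZ and 22, 47 and 15 after solvent, a log2 fold change of 0.32 (SE 0.19, limma adjusted p = 0.374). FTO, which encodes an oxidative demethylase, held 468, 733 and 661 against 41, 64 and 33 (log2 fold change -0.09, SE 0.13). MPG, the glycosylase that removes N-methylated purines, held 10, 20 and 26 G sites against 0, 0 and 0 and was not called (limma adjusted p = 0.117).

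Among genes altered in glioblastoma, 11 of 13 autosomal genes were tested and 0 were called (background 2.17%, median 0.03). At A, C and T 10 were tested, of which 1 was called higher (background 8.04%) and 3 lower (background 9.45%). EGFR, the receptor often amplified in this tumour, held 382, 607 and 588 G sites after TMZ and 20, 61 and 27 after solvent (log2 fold change 0.04, SE 0.16). For TERT, the telomerase gene, the counts were 125, 197 and 167 against 6, 11 and 8 (log2 fold change 0.38, SE 0.29). CDKN2A and CDKN2B, neighbouring inhibitors of the cell cycle that are deleted in many glioma lines, had 0 sites at any base in all 6 libraries, while the median autosomal gene had 11788 sites per Mb over the 6 libraries. MTAP, the gene beside them, had 1032 sites, 7452 per Mb.

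The giant genes of common fragile sites are long, and their G and C share was not measured gene by gene. Of 11 tested autosomal genes, 6 were called lower for G sites (background 0.999%) and 0 higher, with a median log2 fold change of -0.32. That background is over genes with a median of 15 G sites in the solvent libraries, far fewer than these genes hold, and of the 1 Mb bins 20% were called lower, with 338 of 550 in the class poorest in G and C. The count is therefore not read against it. The genes called lower were LRP1B, FHIT, NAALADL2, CNTNAP2, CSMD1 and PTPRD. PTPRD, a receptor phosphatase, held 1859, 2911 and 2551 G sites after TMZ and 177, 334 and 178 after solvent (log2 fold change -0.43, SE 0.07, limma adjusted p = 0.00362). FHIT, a diadenosine triphosphate hydrolase at the fragile site FRA3B, held 1251, 1967 and 1711 against 114, 214 and 104 (log2 fold change -0.33, SE 0.08, limma adjusted p = 0.0459). WWOX, at another fragile site, was not called (0.08, SE 0.08). At A, C and T 9 of the 11 were called lower (background 9.45%), with a median of -0.33. Of the 1 Mb bins 27.8% were called lower at those bases, so that count is not read against the gene background either. For the ratio of G to other sites 0 of 11 were called, with a median of -0.01.

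The other lists had few calls for G sites. Of 12 long genes transcribed in many cells, such as FN1 and CD44, 0 were called (background 2.17%) and the median was 0.01, with 2 called lower at A, C and T (background 9.45%). Of 473 tested ZNF genes, which encode zinc finger proteins, 3 were called higher (background 1.17%) and 5 lower (background 0.999%), with a median of -0.17. For sites at A, C and T, 15 of 418 were called higher (background 8.04%) and 41 lower (background 9.45%). Olfactory receptor genes, which are mostly silent outside the nose, had 85 of 391 members tested, 0 called (background 2.17%) and a median of -0.45. For sites at A, C and T, 8 of 52 were called lower (background 9.45%) and 0 higher. Of 82 autosomal genes for cytosolic ribosomal proteins, 30 passed the filter, and 1 was called higher (background 1.17%), with a median of -0.04. Their summed G share was the highest of the lists, 65.7%, 68.4% and 67.7% after TMZ and 29.0%, 23.2% and 23.1% after solvent, against 60.6%, 64.9% and 63.3% and 24.3%, 19.96% and 19.6% over all autosomal genes. The list members that passed the filter do so mostly through the TMZ libraries, so these counts describe and do not support.

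Whole genes were set against the space between them. The log2 ratio of G site density inside genes to that outside was 0.38, 0.41 and 0.43 after TMZ and 0.27, 0.24 and 0.24 after solvent, and every TMZ library was higher. For sites at A, C and T it was 0.30, 0.32 and 0.35 against 0.18, 0.18 and 0.18. Subtracting the second from the first left 0.087 ± 0.0055 after TMZ and 0.068 ± 0.014 after solvent (SD, n = 3 each), which overlapped (difference 0.019, p = 0.2 by exact permutation). Within same-numbered libraries the difference was 0.0061, 0.030 and 0.021. Without solvent replicate 1 the mean difference was 0.027 and the groups did not overlap. Within 1 kb of the ends of genes, the log2 density of G sites relative to all autosomes, less that of sites at A, C and T, was 0.37 ± 0.019 and 0.36 ± 0.074 (difference 0.0083, p = 0.9 by exact permutation). Solvent replicate 1 decided that value, which was 0.051 without it and then had no overlap.

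Just downstream of gene starts both kinds of site had a higher relative density after TMZ than after solvent. In the first 250 bp downstream of a start, the G share was 72.3% ± 1.53 after TMZ and 31.8% ± 5.15 after solvent (SD, n = 3 each), compared with 64.9% ± 2.02 and 22.6% ± 1.95 at positions -5000 to -4751 relative to the start. Relative to the outer parts of the 10 kb window, G sites in those 250 bp were 1.70 ± 0.106 times as dense after TMZ and 1.07 ± 0.159 times after solvent. Sites at A, C and T were 1.20 ± 0.108 times as dense after TMZ and 0.653 ± 0.0502 times after solvent. Naked DNA had 1.80 ± 0.125 at G and 1.24 ± 0.161 at A, C and T. In both groups the mean G share was higher just downstream of the start than at the outer positions. A higher G share at the start was therefore not particular to TMZ.

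**Figure D5:**
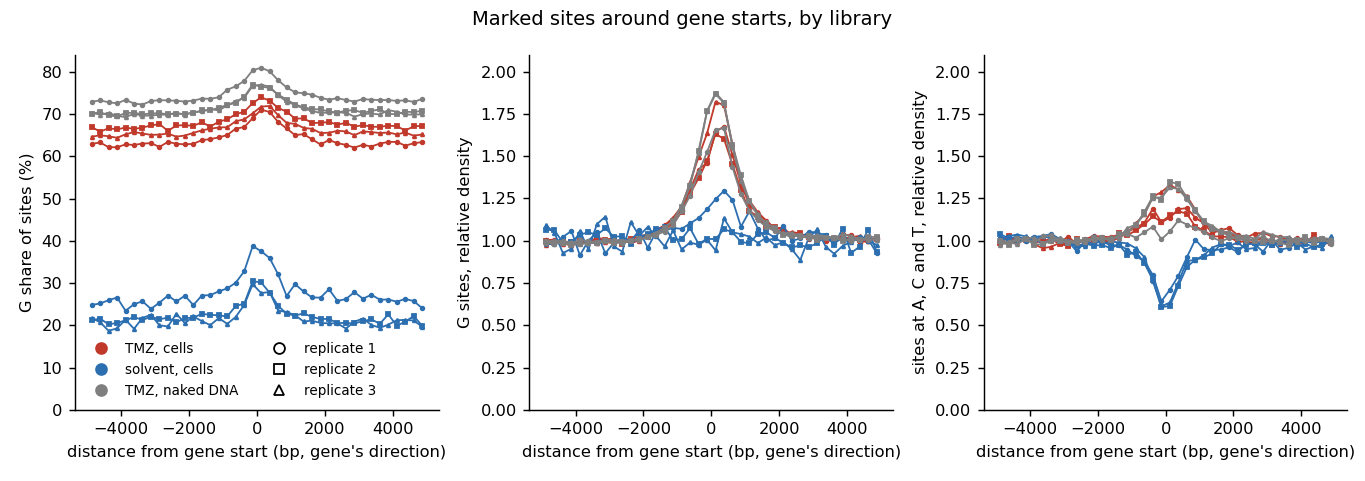
G share of sites (left, percent) and relative density of G sites (middle) and of sites at A, C and T (right) against distance from the gene start (x axis, bp in the gene's direction, steps of 250 bp). Lines are single libraries; just downstream of the start the mean relative density of G sites is 1.70 after TMZ and 1.07 after solvent, and that of A, C and T sites is 1.20 and 0.653.

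The strands of genes differed a little. The log2 ratio of G sites on the coding strand to those on the template strand was 0.205, 0.163 and 0.185 after TMZ and 0.185, 0.065 and 0.052 after solvent, over the genes whose strand is given by the promoter table. Solvent replicate 1 lay among the TMZ libraries, and the groups overlapped (difference 0.084, p = 0.2 by exact permutation). Within same-numbered libraries the difference was 0.020, 0.098 and 0.133. Without solvent replicate 1 the mean difference was 0.13 and the groups did not overlap. Sites at A, C and T showed the same order, with 0.13, 0.10 and 0.12 after TMZ and 0.12, -0.01 and -0.02 after solvent. Naked DNA, treated outside cells, had 0.21, 0.16 and 0.15 at G. The ratio includes any difference in G content between the strands, which was not measured.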

How the data were processed

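O6-MeG-seq of 6 libraries (3 TMZ, 3 solvent) was analysed, with 3 naked DNA libraries beside them. Each file deposited by the authors lists chromosome, position, strand, base and a score from 0 to 42, once per position and strand, so the values are distinct sites and not reads. Per the submitters' processing notes the tools included Trimmomatic 0.39, Bowtie2 2.3.5.1, SAMtools 1.12 and bedtools 2.29.2 with GRCh38. How duplicates were handled is not given in the sources used here. Positions were counted from 1, sites on chromosomes 1 to 22 and M with a score of at least 30 were kept, and each counted 1 time. Promoter windows of chromosome 8 were left out of the printed examples.

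For single values, libraries were permuted exactly between the groups (two-sided, difference of means; scipy 1.17.1). Sites per 1 Mb bin or gene were fitted with limma 3.58.1 (voom; library sizes by trimmed means; features kept at 10 sites or more in 3 libraries or more). The G ratio was fitted on log2 (G + 0.5)/(A, C, T + 0.5), centred on each library's median, with at least 10 sites at A, C and T in every library. Both fits were also run on simulated data. Those data held no G and C trend that differed between libraries, so they do not bear on such a trend. The RefSeq table (GRCh38.p14) gave 20037 protein-coding genes, 15843 of them with a strand, and overlapping genes share sites. Named bins and genes were up to 5 bins and 10 genes per direction with the largest log2 fold change among those called whose groups did not overlap. Libraries, lists and tests were chosen with earlier results of these data known. Sites on chromosomes X and Y enter an alternative setting only. Values of some single genes are not reported here.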

Additional observations from a re-analysis of the deposited data

Results flagged for a closer look

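Some sites lie outside the comparisons, because of their score or chromosome, and the TMZ libraries were above the solvent libraries there too. Among sites with a score under 30, the G share had a mean of 57.0% in the 3 TMZ libraries (55.0% to 58.6%) and of 20.5% in the 3 solvent libraries (19.99% to 21.3%). On chromosomes X and Y it was 60.5% (57.9% to 62.4%) against 19.97% (18.3% to 22.97%). On unplaced and alternative contigs it was 55.6% (51.7% to 58.0%) against 17.3% (16.01% to 18.9%). The groups did not overlap in any of the 3 sets of sites. These values were not tested further.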

How the results depend on the processing

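The base share, the purine before G, the number of sites and the close pairs kept their direction under every alternative run. Close pairs nevertheless ranged from -5.01 with no minimum score to -0.54 without replicate 1. Of the alternatives over the whole data, 113 kept direction and side of the threshold or a count within 1.5 times, 22 moved and 2 reversed. The gene end difference ranged from -0.0085 to 0.051 with 1 replicate left out, reversing at -0.0068 and -0.0085 without replicates 2 and 3. The recurrence difference, untested and counted as moved, was -3.69 with no minimum score, the opposite sign to 0.717. For G sites in 1 Mb bins, 17 bins were called in the fit over 24 cell libraries and 6 with G and C adjusted, and for sites at A, C and T 162 with that adjustment. For the G ratio in bins, the count was 7 with no minimum score, 3 with the replicate block, 0 with sites that no other library marks (179 at an unadjusted p under 0.05, limma), and 0 to 2 with a replicate left out. For genes it was 678 with no minimum score, 206 at a score of 40, 144 with the replicate block, 0 with limma-trend (2706 unadjusted), 1173 with no filter, 0 as a ratio (447 unadjusted) and 0 to 738 with a replicate left out. Genes called at A, C and T numbered 639 to 1882 when a replicate was left out. Leaving a replicate out of both groups also lowered the number of genes tested. Of the 20 named genes, 7 lost their call with the replicate block.

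Same-numbered libraries were not taken as pairs in the main fits. Their deviations over 2751 bins had correlations of -0.10, 0.01 and -0.04, although these were 0.35, 0.26 and 0.16 with no minimum score. The TMZ and solvent libraries numbered 1 and those numbered 2 had 26.7 and 3.19 times the expected G positions in common. The bin correlations therefore do not show that same-numbered libraries are independent. With the replicate block the single values have a sign-flip p of at least 0.25, and bins gave 1229 calls. Recurrence, which has no test, had no such fit. Leaving out solvent replicate 1 alone, the ratio of genes and some tests at A, C and T were chosen after seeing the data. The solvent libraries, with 268988 to 534933 G sites, limit the precision for single genes.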
